A study of Mus musculus with 12 samples.

Results

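The 4.5 Mb at the start of mouse chromosome 19 that hold the nuclear noncoding RNA genes Malat1 and Neat1 were examined in a catalogue of poly(A) sites of embryonic stem cells. A poly(A) site is the place where a transcript is cut and given its poly(A) tail, and each cluster of the catalogue joins neighbouring read ends into 1 site. All clusters whose start lay between 3000000 and 7500000 of chromosome 19 (genome build mm9) were taken, on either strand. This gave 948 clusters, of 4458 on chromosome 19 and 145179 in all. The other 3510 clusters of the chromosome served as the comparison. Membership was by position, but the interval itself was selected on the positions and density of clusters in this same catalogue, so these are given as a description.

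RNA came from V6.5-derived mouse embryonic stem cells of 1 genotype, Exosc3 CKO, a conditional knockout of a core subunit of the RNA exosome, which degrades many nuclear RNAs from their 3' ends. The clones were maintained in doxycycline at 0.1 μg/ml, and the labels equate dox+ with Exosc3+ and dox- with Exosc3-. The 12 libraries formed 6 groups of 2: dox+ and dox- at day 3, and dox+ and dox- at day 2 with Scr AMO or with U1 AMO, antisense morpholino oligonucleotides given at 15 μM with RNA taken 8 hours later. U1 snRNP, the target of U1 AMO, recognises 5' splice sites and shields nascent transcripts from early polyadenylation. The ends were read by 2P-seq, in which sequencing starts at the tail.

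The deposited table pools the series: 0 of its 7 columns held a value of a single library. No level, depth, spread between libraries or effect of doxycycline or AMO could therefore be given for any cluster, and no difference below was tested. Intervals in brackets are 95% Wilson intervals of a share, or Newcombe intervals of a difference of shares. They cover counting error only and treat clusters as independent, which neighbours are not.

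Malat1 is a long noncoding RNA that stays in the nucleus and gathers at nuclear speckles. Its mature 3' end is made by RNase P, which cuts beside a tRNA-like structure, and is held by a triple helix with an A-rich tract that is encoded in the genome. The small RNA released by the cut is called mascRNA. Neat1 is the scaffold of paraspeckles. Its short isoform ends at a poly(A) site inside the gene, and the long isoform reads past that site and is also ended by RNase P. A usual poly(A) site has a signal hexamer a short way upstream, which the cleavage and polyadenylation specificity factor binds.

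In the RefSeq gene table of GRCm38.p6, a later assembly from which names and gene order alone were taken, Malat1 is followed by Mascrna and Neat1, and then by the protein-coding genes Frmd8, Slc25a45, Tigd3 and Dpf2. No annotation of mm9 was used. That the largest minus-strand runs described below lie at Malat1 and Neat1 is general knowledge of the locus and was not checked here, so the runs are named by their number of sites.

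The 1 stretch of sequence at hand for the locus is the Malat1 promoter of RefSeq (GRCm38.p6, chr19:5802623-5802922, minus strand, read in the direction of the gene, with 250 bases before the gene's start). It is shown because divergent sites were found beside the upstream end of the largest run. Capitals mark the letters AATAAA, which lie before the gene's start and not on the strand of those divergent sites. These coordinates belong to another build and were not set against those of the catalogue.

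Malat1 promoter: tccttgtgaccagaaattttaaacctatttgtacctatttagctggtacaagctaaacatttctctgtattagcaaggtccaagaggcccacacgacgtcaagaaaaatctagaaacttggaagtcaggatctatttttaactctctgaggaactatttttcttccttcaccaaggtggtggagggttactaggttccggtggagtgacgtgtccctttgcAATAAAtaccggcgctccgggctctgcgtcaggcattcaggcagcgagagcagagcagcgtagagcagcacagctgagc

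AATAAA occurred 1 time on the gene's strand, its first base 29 bases before the gene's start, and 0 times on the other strand. Of 27025 RefSeq promoters of this length, 11.7% held AATAAA on the gene's strand and 10.5% on the other strand. A match of letters is a description and not a site of cleavage.

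The region held more clusters than any other 4.5 Mb window laid along the autosomes. There were 211 clusters per Mb, against 65.2 per Mb on the rest of chromosome 19 up to its last cluster, a ratio of 3.23. The 11 other windows of 4.5 Mb on the chromosome with at least 100 clusters held 120 to 627, with a median of 304. The fullest of the 444 other such windows over all autosomes held 919. Its first cluster, on the plus strand, lay at 3161825, 1 nt wide and listed with AATAAA at 32 nt, and the next at 3172630 to 3172634 had AATAAA at 22 nt. The last clusters inside the upper bound, at 7498654 to 7498670 and 7499921 to 7499948 on the plus strand, had no hexamer. Just outside it lay a plus-strand cluster at 7500015 to 7500029, with AATAAA at 16 nt, and a minus-strand one at 7500370 to 7500404, with AATAAA at 22 nt.

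Clusters were spread unevenly within the region. In 18 bins of 250 kb they numbered from 4 to 130, with a median of 54, against a median of 7.5 in the 216 bins outside it. The fullest bin, from 5750001 to 6000000, held the largest minus-strand runs, described below, with 96 clusters on the minus strand and 34 on the plus strand. It was not the fullest of the chromosome, since a bin outside the region held 174. No cluster lay between the lower bound and the first cluster at 3161825. Between clusters of the region, the longest stretches free of both strands were 210614 nt (chr19:6679706-6890319) and 112923 nt (chr19:6533221-6646143), and 3 others ran from 55108 to 78876 nt.

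**Figure D1:**
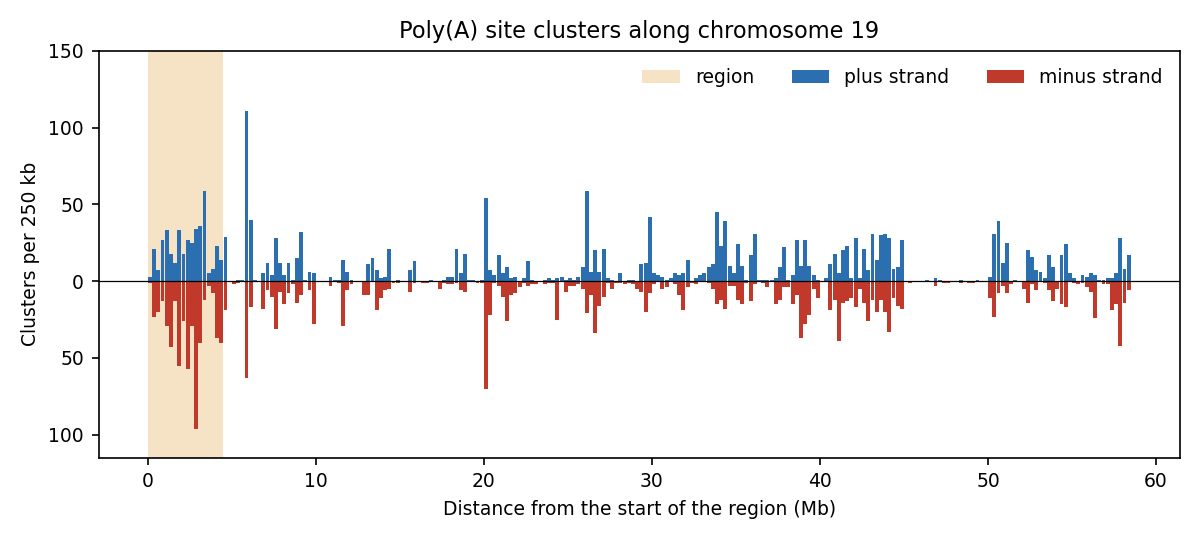
Clusters per 250 kb along chromosome 19, plotted as distance in Mb from the start of the region, with plus-strand clusters above the line, minus-strand clusters below it, and the region shaded. The tallest minus-strand bar, 96 clusters, lies in the region, while the tallest outside it on that strand has 70.

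Minus-strand clusters were in the majority. There were 545 on the minus strand and 403 on the plus strand, so that 57.5% (54.3 to 60.6%) were on the minus strand, against 47.3% (45.7 to 49.0%) on the rest of the chromosome. The difference was 10.2 percentage points (6.59 to 13.7). A run joins clusters of a strand whose gaps are at most 2 kb, and it often, but not always, reflects 1 transcription unit. The difference was 6.78 points (3.08 to 10.4) without the 2 largest runs, and 4.87 points (-0.267 to 9.93) with 1 site per run, the most downstream. Of the 11 other windows of chromosome 19, 1 had a higher minus-strand share, as did 72 of the 444 autosomal windows. All of those windows held fewer clusters than the region, and their shares scattered widely, with a standard deviation of 8.64 points. Among the 41 windows with 600 or more clusters it was 4.88 points, and 1 of them had a higher share than the region.

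A smaller share of the region's clusters had a listed signal. A hexamer was listed for 766 of 948 clusters, 80.8% (78.2 to 83.2%), against 3142 of 3510, 89.5% (88.5 to 90.5%), on the rest of the chromosome. The difference was -8.71 percentage points (-11.5 to -6.11). With lone sites and only the most downstream site of each run it was -2.55 points (-5.67 to 0.033). All 11 other windows of chromosome 19 had a higher share, from 84.3 to 94.2%. Of the 444 autosomal windows, 18 had a lower share. The gap did not rest on the 2 largest runs alone. Without them, but with the plus-strand runs beside them described below, the share was 82.1%, and the difference -7.40 points (-10.2 to -4.78). It was of like size on both strands, with -7.87 points (-12.2 to -4.09) for plus-strand clusters and -9.34 for minus-strand ones.

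Windows with many clusters had lower signal shares elsewhere too. Over the 444 other autosomal windows the number of clusters and the share with a hexamer had a Pearson r of -0.65 and a Spearman rho of -0.61. This is a description of windows that share the same libraries and catalogue. Among the 41 windows with 600 or more clusters the share ran from 76.9 to 92.7% with a median of 84.9%, and 8 of them lay below the region. The region was therefore low for its chromosome and within the range of other dense windows.

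**Figure D2:**
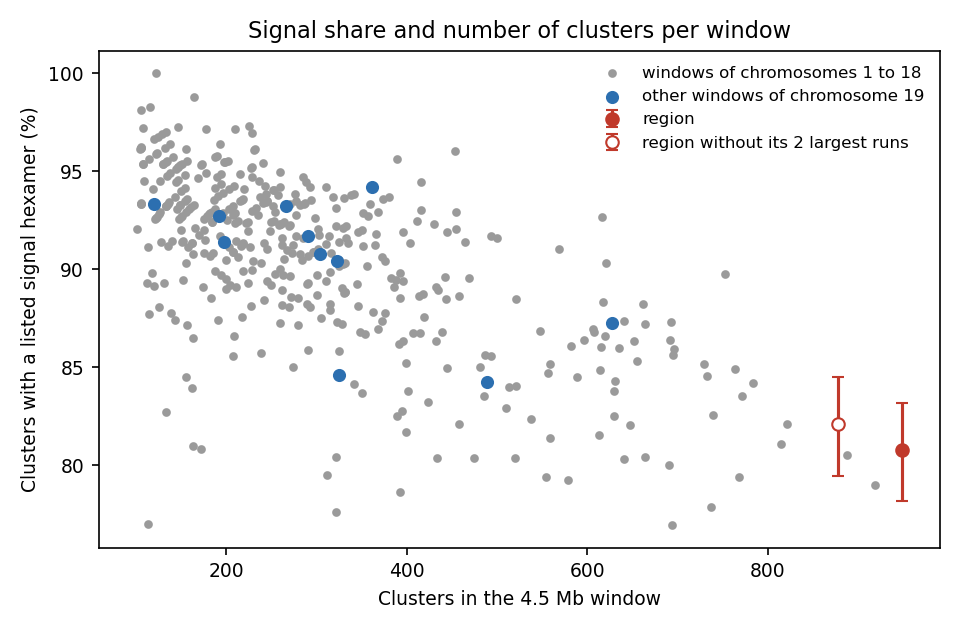
Share of clusters with a listed signal hexamer (%) against the number of clusters in each 4.5 Mb window of the autosomes with at least 100 clusters; the region is drawn with its 95% Wilson interval, filled for all clusters and open without its 2 largest runs. The region lies at the far right with 948 clusters and 80.8%, below all 11 other windows of chromosome 19.

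The hexamers that were listed had nearly the composition of the rest of the chromosome. AATAAA, the canonical signal, was listed for 372 clusters and ATTAAA, its most common variant, for 132. Among clusters with a hexamer, AATAAA made up 48.6% in the region and 48.8% outside it, a difference of -0.195 points (-4.13 to 3.75). ATTAAA made up 17.2 and 17.1%, a difference of 0.141 points (-2.71 to 3.25). Over all clusters, those without a hexamer included, AATAAA was at 39.2% against 43.6%, a difference of -4.41 points (-7.88 to -0.862) that was -1.96 points (-5.58 to 1.71) without the 2 largest runs. The region used 32 hexamers and the rest of the chromosome 34.

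Next in frequency came TATAAA with 37 clusters, AGTAAA with 36, AATACA with 22, AAGAAA with 20, AATATA with 16, CATAAA with 15, AAAAAA with 12, and GATAAA and TAAAAA with 10 each. For each of the 11 hexamers listed at least 10 times, the interval of the difference from the rest of the chromosome included 0. Among the rarer ones it left out 0 for AATGAA, listed for 6 clusters of the region and 59 outside it (-1.09 points, -1.78 to -0.088), and for AAAAAC, with 6 and 8 (0.529 points, 0.038 to 1.45). These 2 were named after their values were seen. The 2 largest runs, with 7.38% of the region's clusters, held 5 of the 16 AATATA clusters, 3 of the 12 with AAAAAA and 3 of the 7 with ACTAAA. They held 6 of the 372 with AATAAA and 0 of the 22 with AATACA. These hexamers too were picked after their values were seen. The A-rich hexamers, meaning those with at least 5 A that are not AATAAA, made up 10.1% (8.12 to 12.4%) of listed hexamers in the region and 10.2% outside it, a difference of -0.132 points (-2.36 to 2.41).

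Signals also lay at a like distance. The median hexamer distance was 21 nt (quartiles 19 and 26 nt), against 22 nt (19 and 27 nt) on the rest of the chromosome. The hexamer lay at 15 to 30 nt for 73.1% (69.9 to 76.1%) of clusters with one, against 72.1%, a difference of 1.02 points (-2.58 to 4.43). For AATAAA alone that share was 80.6% inside and 79.1% outside. The share of sites with a listed signal thus differed from the rest of the chromosome, while for AATAAA and ATTAAA among listed signals, and for the share at 15 to 30 nt, the intervals of the difference included 0.

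The low share was seen in runs more than in lone sites, though the difference between run sizes was not tested. The 298 lone sites of the region had a hexamer in 92.6% of cases, against 94.7% of 1099 lone sites outside it, a difference of -2.11 points (-5.84 to 0.766). In runs of 2 to 4 sites the shares were 81.4 and 89.8%, a difference of -8.35 points (-13.1 to -4.11). In runs of 5 to 9 sites they were 68.4 and 85.7%, a difference of -17.3 points. Runs of 10 or more sites had 69.8 and 83.3%, a difference of -13.5 points (-22.4 to -5.42). Without the 2 largest runs this last share was 76.8%, a difference of -6.52 points (-19.4 to 3.18).

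**Figure D3:**
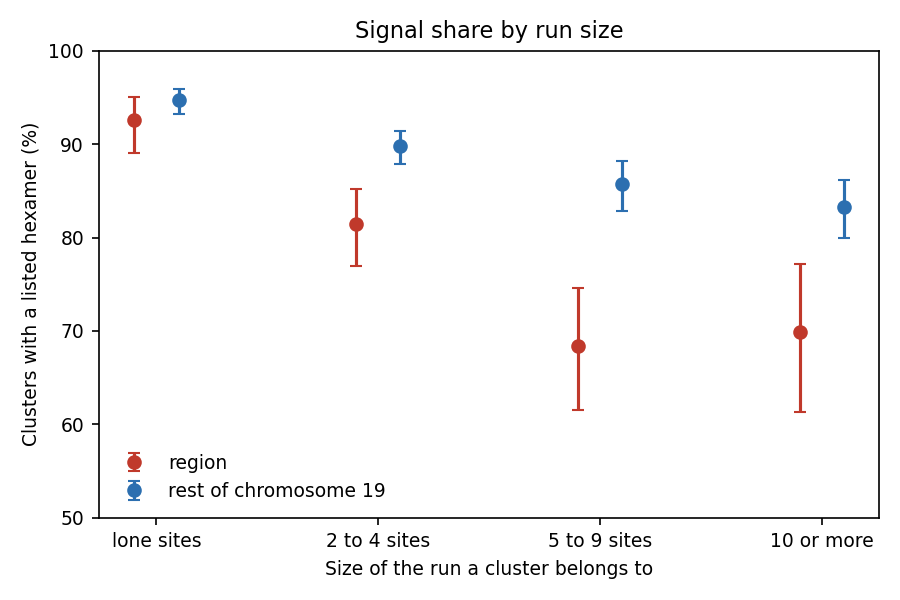
Share of clusters with a listed hexamer (%) by the size of the run they belong to, for the region and for the rest of chromosome 19, with 95% Wilson intervals. The shares of lone sites lie close together, at 92.6 and 94.7%, while those of runs of 5 to 9 sites lie apart, at 68.4 and 85.7%.

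The gap also varied with position within a run. Of the most upstream sites of runs, 69.9% had a hexamer, against 86.1% outside the region, a difference of -16.3 points (-24.0 to -9.14). Sites in the middle of runs had 71.5%, against 85.2% (-13.7 points, -19.3 to -8.61). The most downstream sites had 88.5%, against 91.9% (-3.37 points, -9.45 to 1.33). AATAAA stood at 26.5% of upstream ends and at 43.03% of downstream ends of the region's runs, a step of 16.5 points (6.27 to 26.3). On the rest of the chromosome this step was 16.1 points (10.5 to 21.5), from higher shares at both ends. The region's AATAAA share differed by -10.04 points (-17.3 to -1.94) at upstream ends and by -9.58 points (-17.9 to -0.983) at downstream ends. A run of 4 sites crosses the upper bound, and its most downstream site is counted outside.

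Runs in which most sites lacked a signal were more frequent. Of 37 runs of 5 or more sites, 8 had a hexamer at under 50% of their sites, 21.6% (11.4 to 37.2%). On the rest of the chromosome 8 of 151 did, 5.30% (2.71 to 10.1%). Over all autosomal clusters outside the region, the rest of chromosome 19 included, 299 of 5939 runs did, 5.03%. These 8 runs were picked out after their values were seen. Of them, 5 lay on the plus strand, and 1, of 6 sites at chr19:6307273-6307958, had no hexamer at all. On the minus strand, a run of 9 sites at chr19:5363851-5365883 had 4 sites with a hexamer, and another of 9 sites at chr19:7299866-7302051 had 3.

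Along the region, signal-less clusters were not evenly spread. They made up 33.1% (25.6 to 41.5%) of the bin from 5750001 to 6000000, which holds the 2 largest runs. Without those runs they were 18 of 60 clusters there. The bin from 5250001 to 5500000 had 32.1% (23.1 to 42.7%) and that from 6250001 to 6500000 had 26.8% (17.9 to 38.1%). By contrast the bin from 4750001 to 5000000, with 88 clusters, had 9.09% (4.68 to 16.9%), close to the 10.5% of the rest of the chromosome.

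**Figure D4:**
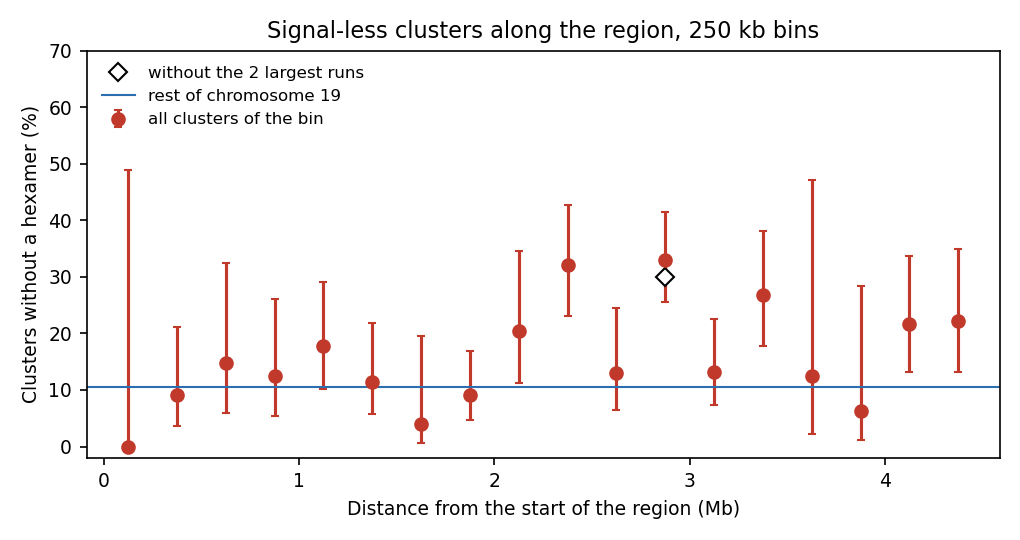
Share of clusters without a hexamer (%) in each 250 kb bin of the region, with 95% Wilson intervals, against distance from the start of the region in Mb; the line marks the 10.5% of the rest of chromosome 19 and the diamond the fullest bin without the 2 largest runs. The highest points, 33.1 and 32.1%, lie between 2.25 and 3 Mb.

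The region held 7 runs of 10 or more sites, and 2 of them dominated. The largest had 42 sites on the minus strand (chr19:5795686-5803330, the position of Malat1 by the background given above). The next had 28 sites on the minus strand, at chr19:5837121-5846190 (at Neat1 by the same background). The bounds of neither gene were placed, so a run need not span its gene. A gap of 33790 nt parted the 2 runs. It held 2 minus-strand clusters, at 5824706 to 5824713 with AAAAAG at 7 nt and at 5826753 to 5826768 with AATAAA at 27 nt. Among 1288 autosomal runs of 10 or more sites, 3 had more sites than the first and 22 more than the second.

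Both runs were filled by wide clusters. Clusters covered 4357 of 7645 nt of the 42-site run, 57.0%, and 5162 of 9070 nt of the 28-site run, 56.9%. The median over the 1288 autosomal runs was 6.39%, with 3 runs above the first and 4 above the second, and the highest on the rest of chromosome 19 was 36.5%. No autosomal run covered more nt in all than the 28-site run. With 70 clusters, 7.38% of the region's, the 2 runs held 38.2% of the nt its clusters covered.

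All 10 of the widest clusters of the region lay in these runs. The widest, at 5841908 to 5843758 in the 28-site run, was 1851 nt wide and listed with AATAAA at 25 nt. Directly upstream, after a gap of 20 nt, came one of 1165 nt without a hexamer (5843779 to 5844943), and after 11 nt more one of 325 nt with AACAAT at 77 nt. A cluster of 434 nt (5840793 to 5841226), with AATAAT at 59 nt, was the third widest. In the 42-site run the widest was 409 nt (5800964 to 5801372), without a hexamer, and next came one of 326 nt (5796197 to 5796522) with ATTAAA at 15 nt. The other 4 were 220 to 255 nt wide and lay in the same run. Over 200 nt there were 11 clusters, all in the 2 runs. The widest cluster elsewhere in the region was 157 nt and the widest on the rest of the chromosome 190 nt.

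Without the 2 runs, cluster width lay closer to that of the chromosome. The median width was 13 nt in the region and 10 nt outside it, and 12 nt without the 2 runs. Clusters over 50 nt made up 9.70% (7.98 to 11.8%) against 5.04%, a difference of 4.66 points (2.77 to 6.82), and of these 92 clusters 40 lay in the 2 runs. Without them the difference was 0.880 points (-0.701 to 2.77). On the plus strand, which holds neither run, 8.19% were over 50 nt, against 5.35% outside the region (2.83 points, 0.277 to 6.06). On the whole minus strand the difference was 6.13 points (3.53 to 9.16), and without the 2 runs it was -0.696 points (-2.51 to 1.65). Runs rich in wide clusters were left out of the minus strand alone, so the last value does not compare the strands. The covered length of the region, 24899 nt, was exceeded by 1 of the 444 other autosomal windows.

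Signals within the 2 runs often lay outside 15 to 30 nt, and in the 42-site run many lay far from their site. The 42-site run had a hexamer at 28 sites, AATAAA at 3, ATTAAA at 5 and A-rich hexamers at 7, drawn from 12 different hexamers. The hexamer lay at 15 to 30 nt for 9 of the 28 and at 61 to 100 nt for 12. In the 28-site run 17 sites had a hexamer, AATAAA at 3, ATTAAA at 2 and an A-rich hexamer at 1. Of these 17 hexamers 6 lay at 15 to 30 nt, 4 at 61 to 100 nt, and some nearer, at 11 to 14 nt. The median distance was 49 nt in the 42-site run and 25 nt in the 28-site run. Together, 33.3% (21.4 to 47.9%) of their hexamers lay at 15 to 30 nt, against 75.6% in the rest of the region. On the rest of the chromosome that share was 67.4% in runs of 10 or more sites and 59.0% for clusters over 50 nt. An oligo-dT primer can also start within A-rich transcript sequence. Whether this gave any of these sites was not tested, since the sequence around them was not at hand. The listed hexamers lie upstream of the sites and do not measure it. As a description, A-rich hexamers made up 7 of the 28 listed hexamers of the 42-site run (12.7 to 43.4%). In the 28-site run they made up 1 of 17 (1.05 to 27.0%).

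The downstream ends of the 2 runs were unlike. The most downstream cluster of the 42-site run, at 5795686 to 5795703, was 18 nt wide with AATAAA at 21 nt, the usual form of a poly(A) site. The next 2 sites upstream had TAAAAA at 26 nt and ATTAAA at 15 nt. In the 28-site run the most downstream clusters, of 22 and 48 nt, had no hexamer, and the first AATAAA, at 17 nt, belonged to the third cluster. Downstream of the runs the nearest minus-strand cluster lay 4203 nt and 10352 nt away.

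**Figure D5:**
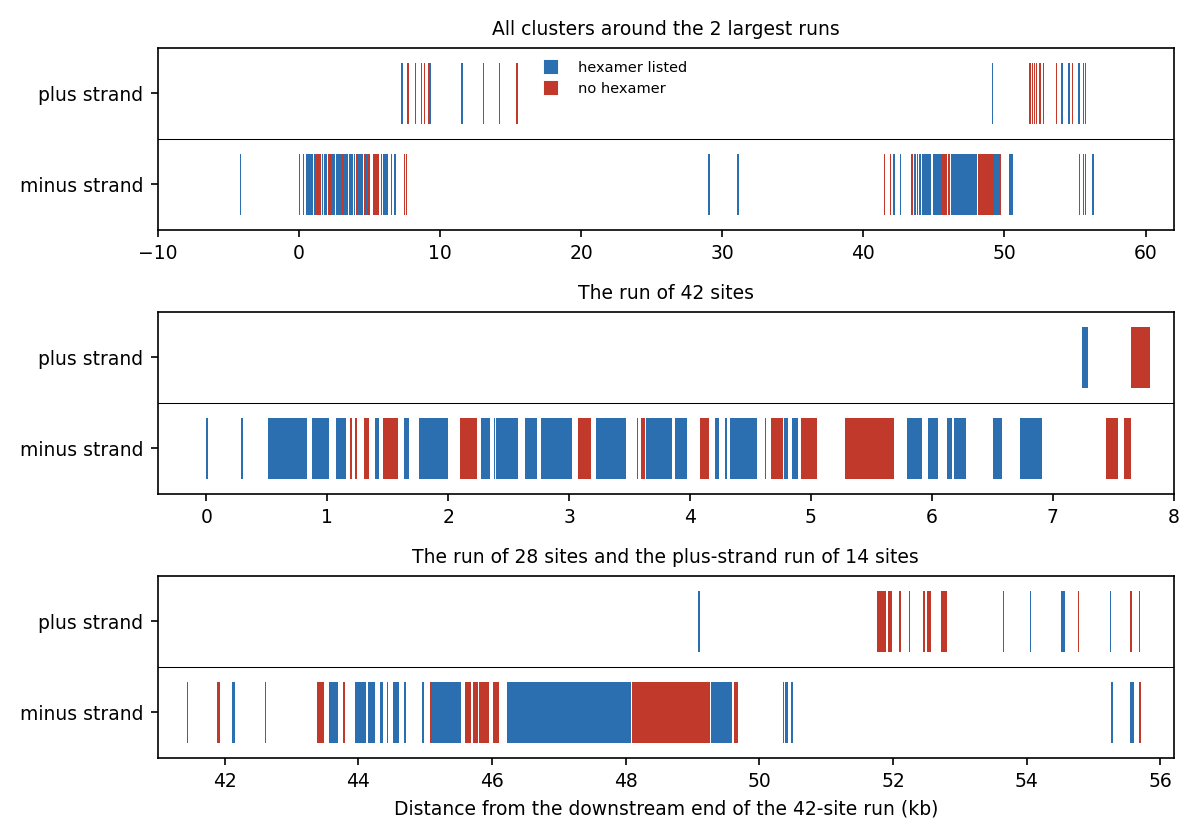
Clusters around the 2 largest runs as boxes drawn to width (the narrowest at a minimum that can be seen), on the plus strand (upper row) and the minus strand (lower row) of each panel, against distance in kb from the downstream end of the 42-site run; blue boxes have a listed hexamer and red boxes have none. Wide clusters fill both minus-strand runs, the widest being 1851 nt, and plus-strand runs begin at the upstream end of each.

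A plus-strand run rich in signal-less sites lay at the upstream end of each of the 2 minus-strand runs. Both plus-strand runs are among the 8 already counted above as having a hexamer at under 50% of their sites. Beside the 42-site run were 7 plus-strand sites (chr19:5802931-5804939), which reach 400 nt inside it, and 3 of these had a hexamer, with 0 AATAAA. The site inside the 42-site run had ATTAAA at a distance of 18 nt, and the other two had TATAAA listed much farther off, at 94 nt, or the variant AATGAA at 96 nt. Beside the 28-site run, 1248 nt beyond its end, began the third largest run of the region, with 14 sites on the plus strand (chr19:5847439-5851375). It had a hexamer at 4 sites, 28.6% (11.7 to 54.6%), and 14 of the 1288 autosomal runs had a lower share. The 8 sites nearest to its upstream end all lacked a hexamer, and the 4 with one were among the 6 farther downstream, where AATAAA lay at 19 nt and, at the last site, ATTAAA at 20 nt. Starts of transcripts were not part of the data.

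The other 4 runs of 10 or more sites were of a different kind. On the plus strand, 12 sites at chr19:4758963-4765952 all had a hexamer, with AATAAA at 5. On the minus strand, runs of 10 sites at chr19:4314445-4318464, chr19:5289628-5293344 and chr19:6059760-6068753 each had a hexamer at 9 sites, with AATAAA at 4, 1 and 4. Their clusters covered 1.93 to 2.61% of their spans, and their median widths were 4 to 16.5 nt.

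Sites on opposite strands lay closer together than elsewhere on the chromosome. A cluster of the opposite strand lay within 1 kb of 24.2% (21.5 to 27.0%) of the region's clusters and of 12.3% (11.3 to 13.5%) outside it, a difference of 11.8 points (8.97 to 14.8). All 11 other windows of the chromosome were lower, from 3.33 to 19.7%. Neighbours of the same strand did not follow: 59.2% had one within 1 kb, a difference from the rest of the chromosome of -0.823 points (-4.37 to 2.67). Runs of 10 or more sites held 13.3% of the region's clusters and 16.0% outside it, a difference of -2.75 points (-5.12 to -0.156) that turned to 0.890 against all other autosomal clusters. Neighbour shares are not independent of the cluster density on which the interval was selected. Of the 444 autosomal windows, 24 had a higher share of opposite-strand neighbours, 6 of them among the 41 densest.

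Clusters of opposite strands overlapped in 18 pairs. They took in 36 of the region's 948 clusters (2.76 to 5.21%), against 1.34% (1.01 to 1.78%) outside it. The longest overlap, 31 nt, joined a plus-strand cluster at 6115982 to 6116012 with AATAAA at 21 nt and a minus-strand one at 6115980 to 6116027 with AATAAA at 33 nt. In the next 3 pairs, which overlap by 26, 20 and 19 nt at 4195184, 4440301 and 5092862, the plus-strand cluster had no hexamer and the minus-strand cluster had AATAAA, except that the pair of 20 nt had ATTAAA there. The fifth, of 16 nt, set a plus-strand AATAAA site at 5844775 to 5844790 against the signal-less cluster of 1165 nt in the 28-site run.

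The excess of divergent pairs between 1 and 10 kb depended on the 2 largest runs. A pair is called divergent where the minus-strand midpoint lies to the left, and convergent otherwise. Every plus-strand cluster was paired with every minus-strand one at the given distance, so 1 cluster can enter many pairs. The intervals of the ratios come from Wilson intervals of the share of divergent pairs. They treat pairs as independent, which pairs that share clusters are not, and are therefore too narrow. From 1 to 3 kb, 198 pairs were divergent and 139 convergent, for a ratio of 1.42 (1.15 to 1.77), or 0.51 on the log2 scale, and without the 2 runs 112 and 136, a ratio of 0.824 (0.642 to 1.06). At 5 to 10 kb the ratio was 2.39 (2.08 to 2.74) with 687 and 288 pairs, and 0.826 (0.696 to 0.981) without them. At 10 to 20 kb divergent pairs stayed the more frequent, at 1.72 (1.52 to 1.94) with and 1.25 (1.09 to 1.42) without the 2 runs. The rest of the chromosome had a like ratio at 10 to 20 kb, 1.23 (1.14 to 1.32). Its ratio was 1.14 (1.01 to 1.29) at 1 to 3 kb and 0.664 (0.606 to 0.729) at 5 to 10 kb. At 0.2 to 1 kb divergent pairs were the fewer with and without the 2 runs, with 60 against 107, a ratio of 0.561 (0.409 to 0.768), and 53 against 103, a ratio of 0.515 (0.370 to 0.716). On the rest of the chromosome that ratio was 0.987 (0.791 to 1.23), with 154 and 156 pairs, and over all other autosomal clusters 0.710.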

How the data were processed

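RNA selected on oligo-dT was, per the labels' protocols, trimmed by RNase T1 and turned into circularised, amplified cDNA that was read from its tail. Of tools and builds, STAR, bedtools, Trimmomatic and mm9 stand in the submitters' processing notes. How read ends were joined, and any filter against internal priming, is not given in the sources used here. The values are other than levels: genomic positions and hexamer distances in nt, deposited by the authors for the series as a whole, per the file headers. Depth is unknown. Starts were taken as counted from 0 and are printed from 1.

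Members, lists and named clusters were chosen with earlier results of these data known. Named were the bounds, the 10 widest clusters, runs of 10 or more sites, the 5 longest free stretches and overlaps, and hexamers listed 10 or more times. Groups were read from the labels but entered no comparison. Neighbours were measured between cluster edges and pairs between midpoints. Windows of 4.5 Mb began at 3 Mb and needed 100 clusters. Neighbour distances and pair counts were checked against a direct count on simulated data, and the joining of runs was not. Tables were made with pandas 2.3.3 and numpy 2.4.6 under Python 3.11.15, intervals with scipy 1.17.1, and figures with matplotlib 3.10.9. The closing section gives the alternatives tried.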

Additional observations from a re-analysis of the deposited data

How the results depend on the processing

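The 13 comparisons were repeated with 99 changes of setting and 13 more chosen after seeing the data, which leave out the 2 largest runs. In 84 of these 112 the value stayed within the interval of the reported one, in 22 it moved outside without a called value changing sign, and in 6 it reversed; the cause was not tested. With only the most downstream site of each run, the difference in hexamer share was -2.55 points, in clusters over 50 nt 1.58 and in minus-strand share 4.87. Without the largest run, clusters over 50 nt differed by 2.24 points, those in runs of 10 or more sites by -6.77, and the log2 pair ratio was 0.051. Without the 2 largest runs these were 0.880, -9.66 and -0.28, and the density ratio was 2.99. On the plus strand alone, AATAAA differed by -0.218 points, same-strand neighbours by -5.41, opposite-strand neighbours by 17.9 and runs of 10 or more by -12.0; on the minus strand, AATAAA by -7.97, median width by 4 nt, opposite-strand neighbours by 7.12 and runs of 10 or more by 5.04. Against all other autosomal clusters the density ratio was 3.63 and runs of 10 or more differed by 0.890 points. With clusters up to 50 nt, runs of 10 or more differed by -5.50 points and the log2 pair ratio was -0.11. Other limits gave 2.48 points for clusters over 100 nt, 3.02 for same-strand neighbours within 5 kb, 6.04 and 18.3 for opposite-strand neighbours within 200 nt and 5 kb, 0.00036 for runs joined at 1 kb, and a log2 pair ratio of -0.83 at 0.2 to 1 kb. No paired analysis was possible because no value of any library was in the table.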
